A study of Mus musculus with 3 samples.

Results

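The genes described here encode the Wnt ligands, their Frizzled receptors, 2 families of secreted antagonists and 6 intracellular genes of the same pathway, and they were compared between Colon26, a mouse line derived from an adenocarcinoma of the colon, and LuM1 and NM11, which are sublines of it. Members were all genes whose symbol names a Wnt, Frizzled (Fzd), secreted frizzled-related protein (Sfrp) or Dickkopf (Dkk) gene, together with *Ctnnb1*, *Lef1*, *Tcf7*, *Tcf7l2*, *Axin2* and *Nkd1*. This rule gave 43 genes, measured by 57 probes, of the 22911 named genes on the array. They were 19 Wnt, 10 Fzd, 4 Dkk and 4 Sfrp genes and the 6 intracellular genes. The labels call LuM1 cells high-metastatic and NM11 cells low-metastatic, and give all 3 lines as BALB/c and female. The lines carried no engineered allele in the labels and received no agent other than their common serum-containing medium with antibiotics. Each line was grown for 3 days, and 0.1 µg of its total RNA was labelled with Cy3 and read on an array of its own, 1 per line. The labels do not say whether either subline is a single clone, and RNA of cultured cells says nothing of the cells a tumor would hold.

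Wnt proteins are secreted, lipid-modified ligands that bind Frizzled receptors together with the co-receptors Lrp5 and Lrp6. In the canonical branch this stops the breakdown of β-catenin, which then acts with the Tcf and Lef factors to switch on target genes, among them feedback inhibitors such as *Axin2*. Other Wnt and Frizzled pairs act through polarity and calcium signals without β-catenin. In the colon the canonical branch maintains the stem cells of the crypt, and mutations that keep it active are typical of colorectal tumors.

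The values below are scaled signals, that is the scanner's brightness of a gene's brightest probe after each array was brought to the same 75th percentile (585.1). They are given with the scanner software's own error. A probe that the software did not call well above background has only a bound, so its ratio is written as at least N-fold. With 1 array per line there was no replicate check and no test, and a gene was called higher or lower where its ratio or bound passed 2-fold (1 on the log2 scale). Signals of different probes cannot be ranked against each other.

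The software called 49.9% to 53.8% of all probes well above background, marked 74 to 137 outlier spots per array with none among the members, and found no saturated spot. The colon label was checked against marker genes. Of 5 epithelial markers, *Cdh1*, *Krt18* and *Krt19* were well above background on no array, *Epcam* only on the LuM1 array (28.0) and *Krt8* on all 3. Of 6 intestinal markers, *Cdx2*, *Krt20* and *Lgals4* were well above background in all lines, with a summed list signal of 1313 in Colon26, 380 in LuM1 and 407 in NM11 cells, whereas *Cdx1*, *Vil1* and *Muc2* were not. Mesenchymal markers were bright. *Vim* was at 102137, 80065 and 98371 in Colon26, LuM1 and NM11 cells, and 6 to 7 of 8 such genes were well above background, with summed signals of 115970 to 204183. Within that list *Col1a2* read 49.6 in LuM1 against 59896 in Colon26 and 85275 in NM11 cells, and *Dcn* was not well above background in Colon26 (6.07) against 27503 in LuM1 and 9599 in NM11 cells. *Ptprc*, the pan-leukocyte marker, and *Cdh5*, *Kdr* and *Tek* of the endothelium were well above background nowhere, although 4 of 6 leukocyte genes were. The remaining endothelial marker, *Pecam1*, was well above background in all lines (51.3, 53.0 and 78.3 in Colon26, LuM1 and NM11 cells). The summed leukocyte list signal was 16947 in LuM1 against 7046 in Colon26 and 6221 in NM11 cells. In the order Colon26, LuM1, NM11, *Cd68* read 172, 5251 and 299 and *Cd14* 1153, 4175 and 988. *Itgam* differed less (5027, 6818 and 4251), and *Csf1r* was level (682, 691 and 675). The part of these differences in the results below was not tested. In such bulk RNA, fewer cells of a kind and less RNA per cell cannot be told apart.

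Promoter sequences from RefSeq (mouse assembly GRCm38.p6) were found for 31 of the 43 genes, in 40 windows covering the 250 bases before a transcription start. The windows of *Wnt10b* (chr15:98778151-98778400, minus strand), *Dkk2* (chr3:132085042-132085291, plus strand), *Wnt3* (chr11:103773925-103774174, plus strand), *Wnt5b* (chr6:119449387-119449636, minus strand) and *Fzd1* (chr5:4758217-4758466, minus strand) are shown because these genes carried large differences between the lines described below. Each reads 5′ to 3′ along the gene's strand, and capitals mark a TATA motif (TATAAA) or a Tcf/Lef motif (CTTTGAA or CTTTGAT), each searched on both strands.
Wnt10b: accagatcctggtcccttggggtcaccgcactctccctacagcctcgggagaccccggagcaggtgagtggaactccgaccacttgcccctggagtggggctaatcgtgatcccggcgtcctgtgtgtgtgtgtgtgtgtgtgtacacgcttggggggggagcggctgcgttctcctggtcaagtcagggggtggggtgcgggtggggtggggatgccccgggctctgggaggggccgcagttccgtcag
Dkk2: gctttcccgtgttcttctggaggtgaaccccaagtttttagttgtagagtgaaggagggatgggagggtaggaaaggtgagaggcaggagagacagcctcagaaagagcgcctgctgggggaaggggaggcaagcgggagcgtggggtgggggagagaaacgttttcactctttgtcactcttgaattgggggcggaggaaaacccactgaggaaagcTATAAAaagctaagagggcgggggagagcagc
Wnt3: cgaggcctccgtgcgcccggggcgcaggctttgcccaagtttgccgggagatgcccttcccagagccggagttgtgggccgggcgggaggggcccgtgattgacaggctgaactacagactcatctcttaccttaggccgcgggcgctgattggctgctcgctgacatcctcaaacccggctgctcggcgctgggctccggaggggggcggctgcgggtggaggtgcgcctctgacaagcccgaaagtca
Wnt5b: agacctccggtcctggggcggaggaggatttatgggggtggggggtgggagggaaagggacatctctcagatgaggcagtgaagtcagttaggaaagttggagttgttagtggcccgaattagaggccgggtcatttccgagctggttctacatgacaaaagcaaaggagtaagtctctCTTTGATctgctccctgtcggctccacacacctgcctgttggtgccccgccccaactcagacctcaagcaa
Fzd1: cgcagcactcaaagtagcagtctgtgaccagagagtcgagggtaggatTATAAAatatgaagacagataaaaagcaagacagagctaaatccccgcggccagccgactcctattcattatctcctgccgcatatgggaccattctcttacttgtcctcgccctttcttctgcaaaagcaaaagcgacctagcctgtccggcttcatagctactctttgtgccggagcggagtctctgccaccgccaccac
Counted from the start of transcription, the TATA motif began at position -32 of *Dkk2* and -202 of *Fzd1*. A Tcf/Lef motif began at position -71 of this window of *Wnt5b*, which was chosen among the gene's windows for holding it. Over all members, 3 of 40 windows (7.5%) held a Tcf/Lef motif and 8 (20%) a TATA motif, against 7.48% and 12.4% of the 32851 windows of all genes. The member windows were richer in G and C, with a median of 67.4% and 21 CpG pairs against 52.4% and 6 pairs over all windows. A match of letters is a description and no proof of binding.

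Many genes of the pathway were dim in these cells. Of the 43 members, 17 were well above background in Colon26, 18 in LuM1 and 19 in NM11 cells (39.5%, 41.9% and 44.2%), against 56.9%, 59.9% and 59.1% of all named genes. In all, 24 members were well above background on at least 1 array, 12 of them on all 3, and 19 on none. The 19 comprised *Wnt2*, *Wnt2b*, *Wnt3a*, *Wnt4*, *Wnt7a*, *Wnt8a*, *Wnt9b*, *Wnt11*, *Wnt16*, *Fzd9*, *Fzd10*, *Dkk1*, *Dkk4*, all 4 Sfrp genes, *Axin2* and *Nkd1*, with scaled signals between 3.87 and 26.5. Their levels could not be ordered between the lines.

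**Figure D1:**
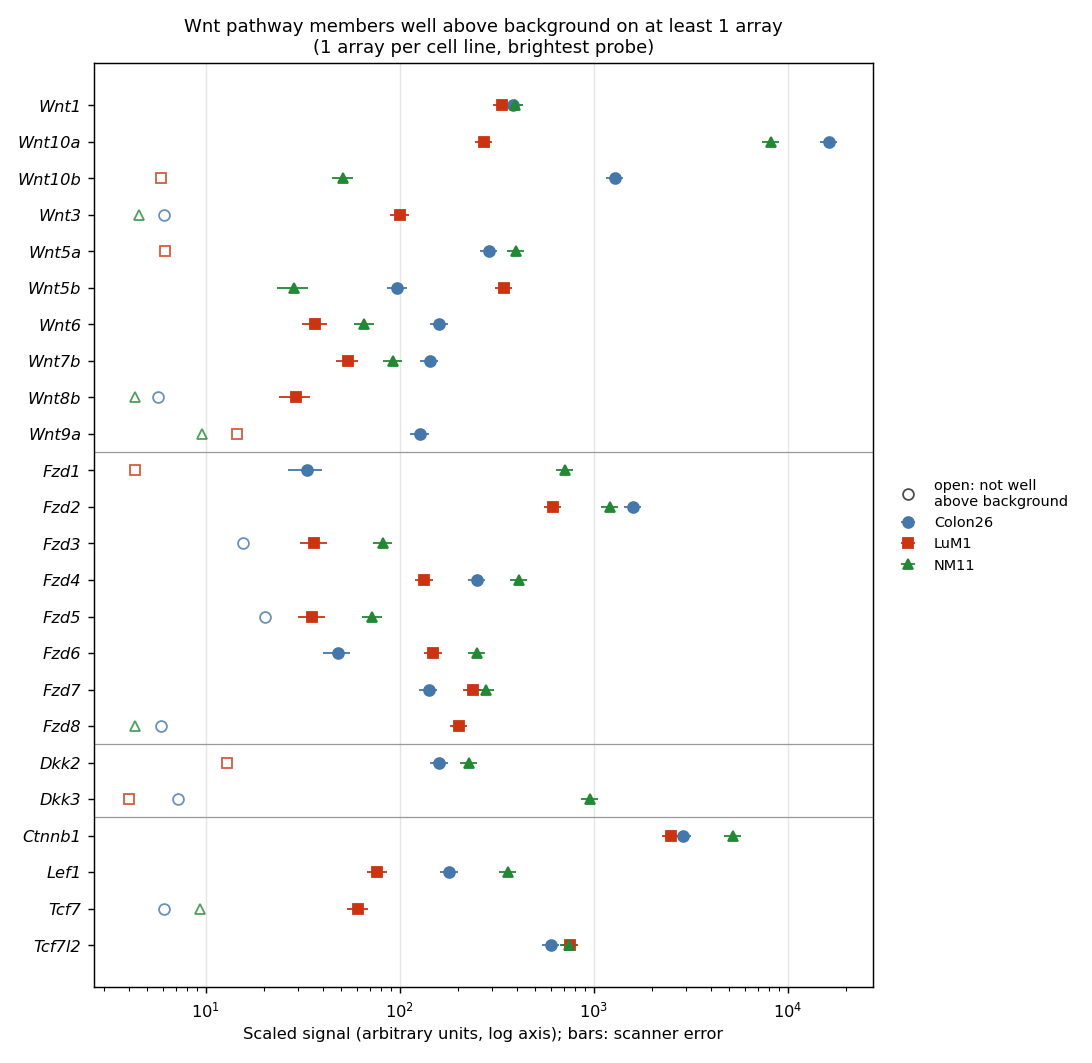
Scaled signal (log axis, arbitrary units) of the 24 member genes well above background on at least 1 of the 3 arrays, with Wnt, Fzd, Dkk and intracellular genes set apart by lines. Filled symbols are well above background, open symbols are not, and bars are the scanner error. The LuM1 symbol lies far left of both others for *Wnt10a*, *Wnt5a* and *Dkk2* and far right for *Wnt3* and *Fzd8*.

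Among the ligands, *Wnt10a*, whose loss impairs tooth and hair development, had a scaled signal of 16346 ± 1635 in Colon26, 272 ± 27.6 in LuM1 and 8162 ± 816 in NM11 cells (probe A_51_P171616). It was well above background in each line and lowest in LuM1 cells. The ratio of LuM1 to Colon26 was 60.1-fold lower (log2 ratio -5.91, scanner error 0.21) and that of LuM1 to NM11 30.0-fold lower (-4.91). Of 12394 genes measured on both arrays of the former pair, 14 (0.113%) fell at least as far, *Wnt10a* included. NM11 cells, with 49.9% of the Colon26 signal, lay just past the threshold, and 5 of 8 alternative settings kept that call.

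*Wnt10b*, a close relative known for restraining fat cell formation, had a signal of 1289 ± 129 in Colon26 and 51.2 ± 6.54 in NM11 cells, and its 5.86 in LuM1 cells was not well above background. The 3 lines thus stood apart in the order Colon26, NM11, LuM1. LuM1 cells were at least 64.0-fold lower than Colon26 and at least 2.54-fold lower than NM11 cells, and NM11 cells were 25.2-fold lower than Colon26 cells (log2 ratio -4.65, error 0.23). A second probe of the gene gave 301 ± 30.6 in Colon26 cells and values not well above background in LuM1 (4.42) and NM11 (8.50), with bounds of at least 14.9-fold and 15.4-fold lower. The bound against NM11 cells fell under 2-fold when arrays were scaled to *Hprt*, with the authors' values and after normexp correction.

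*Wnt5a*, the typical ligand of the β-catenin-independent branches, had a signal of 289 ± 29.6 in Colon26 and 397 ± 40.0 in NM11 cells and was not well above background in LuM1 cells (6.19). LuM1 cells were therefore at least 14.4-fold lower than Colon26 and at least 19.7-fold lower than NM11 cells. NM11 and Colon26 cells differed by 0.46 on the log2 scale (error 0.21). The gene's other probe was not well above background on any array (18.6, 5.14 and 16.6 in Colon26, LuM1 and NM11).

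Its paralog *Wnt5b* ran the other way. The probe for the transcript NM_001271757 read 97.2 ± 11.4 in Colon26, 345 ± 34.8 in LuM1 and 28.5 ± 5.22 in NM11 cells. All 3 values were well above background, with LuM1 highest and NM11 lowest. LuM1 cells were 3.55-fold higher than Colon26 (log2 ratio 1.83, error 0.22) and 12.1-fold higher than NM11 cells (3.60, error 0.30), and NM11 cells were 3.41-fold lower than Colon26 cells (-1.77). The probe for NM_009525 read 36.5, 83.3 and 28.7 in Colon26, LuM1 and NM11 cells, which put LuM1 cells 2.28-fold and 2.91-fold higher, and its difference between NM11 and Colon26 cells (-0.35) was within the scanner error (0.35).

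*Wnt3*, which is needed for gastrulation and is made by Paneth cells of the crypt, was well above background in LuM1 cells (101 ± 11.2) and not in Colon26 (6.11) or NM11 cells (4.51). This made LuM1 cells at least 3.81-fold higher than Colon26 and at least 5.14-fold higher than NM11 cells. *Wnt8b*, a ligand of the developing forebrain, was also well above background in LuM1 cells alone, at 29.2 ± 5.30, but its bounds of 0.14 against Colon26 and 0.58 against NM11 cells (log2) stayed under the threshold. *Wnt9a*, a ligand of forming joints, passed the background test in Colon26 cells only (127 ± 13.9), with 14.5 in LuM1 and 9.52 in NM11 cells. Colon26 cells were at least 6.32-fold above LuM1 and at least 6.50-fold above NM11 cells, and no ratio between the sublines could be given.

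*Wnt6* read 160 ± 16.9 in Colon26, 36.7 ± 5.53 in LuM1 and 65.7 ± 7.67 in NM11 cells, 4.36-fold lower in LuM1 and 2.44-fold lower in NM11 than in Colon26 cells. For *Wnt7b*, the brighter probe read 142, 54.0 and 92.6 in Colon26, LuM1 and NM11 cells, with LuM1 2.64-fold below Colon26 cells (5 of 8 alternative settings kept this call). Its other probe, for the transcript NM_001163634, read 52.2, 54.9 and 57.8 and showed no difference beyond the scanner error (log2 ratio 0.07, error 0.27), so the probes of *Wnt7b* disagreed. *Wnt1*, the founding member of the family, read 383 ± 38.8, 336 ± 34.0 and 391 ± 39.3, and no pair of lines differed by more than 0.22 on the log2 scale (error 0.21).

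Several of these ligands are neighbours on their chromosome, with no protein-coding gene between them. *Wnt6* and *Wnt10a* on chromosome 1 were both at least 2-fold higher in Colon26 than in both sublines. *Wnt10b* and *Wnt1* on chromosome 15 were unlike each other, with large differences for the former and none past 2-fold for the latter. On chromosome 11, *Wnt9a* and *Wnt3* were measured while their respective neighbours *Wnt3a* and *Wnt9b* were well above background on no array.

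Of the Frizzled genes, 8 of 10 were well above background on at least 1 array, as were 10 of 19 Wnt genes and 14828 of all 22911 named genes. *Fzd1* had a signal of 713 ± 71.4 in NM11 and 33.2 ± 6.52 in Colon26 cells, and its 4.32 in LuM1 cells was not well above background. NM11 cells were 21.5-fold higher than Colon26 cells (log2 ratio 4.42, error 0.32), and LuM1 cells were at least 35.4-fold lower than NM11 cells. Of 12469 genes measured on both the NM11 and Colon26 arrays, 35 (0.281%) rose at least as far, *Fzd1* included. Genes with only a bound in that pair, such as *Dkk3* (log2 bound 5.17), were not counted.

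*Fzd8* had the opposite pattern. It read 201 ± 20.7 in LuM1 cells and was not well above background in Colon26 (5.88) or NM11 cells (4.30), which put LuM1 cells at least 7.63-fold and at least 10.3-fold higher. Around this spot on the LuM1 array, 26 of 223 neighbouring spots (11.7%, within 10 rows and 5 columns) were also well above background on that array alone, against 3.49% of all its spots, and 10.1% of such spots lay in surroundings at least as dense. Around the spots of *Wnt3* and *Tcf7*, the share was 5.50% and 6.42%. The part of these surroundings in the results was not tested.

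*Fzd3* and *Fzd6*, receptors of planar cell polarity, were both lowest in Colon26 cells. *Fzd6* read 47.9 ± 7.63, 149 ± 15.6 and 250 ± 25.4 in Colon26, LuM1 and NM11 cells, 3.11-fold higher in LuM1 and 5.22-fold higher in NM11 than in Colon26 cells. *Fzd3* was not well above background in Colon26 cells (15.5) and read 36.3 ± 5.79 in LuM1 and 82.4 ± 9.26 in NM11 cells. NM11 cells were at least 3.12-fold above Colon26 cells, and LuM1 cells were 2.27-fold below NM11 cells, which 5 of 8 alternative settings kept.

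*Fzd5* read 20.3 in Colon26 cells, where it was not well above background, 35.4 ± 5.50 in LuM1 and 72.3 ± 8.26 in NM11 cells. Its ratio of LuM1 to NM11 was 2.04-fold lower, a call that held in 3 of 8 alternative settings, and the dimmer probe of the gene was well above background only in NM11 cells (34.7). Around that dimmer spot, 8.41% of neighbouring spots were well above background on the NM11 array alone, against 2.14% of all its spots, and 4.65% of such spots lay in surroundings at least as dense; the part of this in the value was not tested. *Fzd4*, which also binds the ligand norrin, read 250 ± 25.7, 134 ± 14.1 and 413 ± 41.5, 3.09-fold lower in LuM1 than in NM11 cells (log2 ratio -1.63). *Fzd2* was highest in Colon26 cells (1592 ± 159) and lowest in LuM1 cells (619 ± 62.0), 2.57-fold apart, with 1207 ± 121 in NM11 cells. *Fzd7*, a receptor of intestinal stem cells, read 141, 237 and 279 in the same order of lines and passed 2-fold in no comparison, the closest being NM11 over Colon26 at 1.98-fold.

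**Figure D2:**
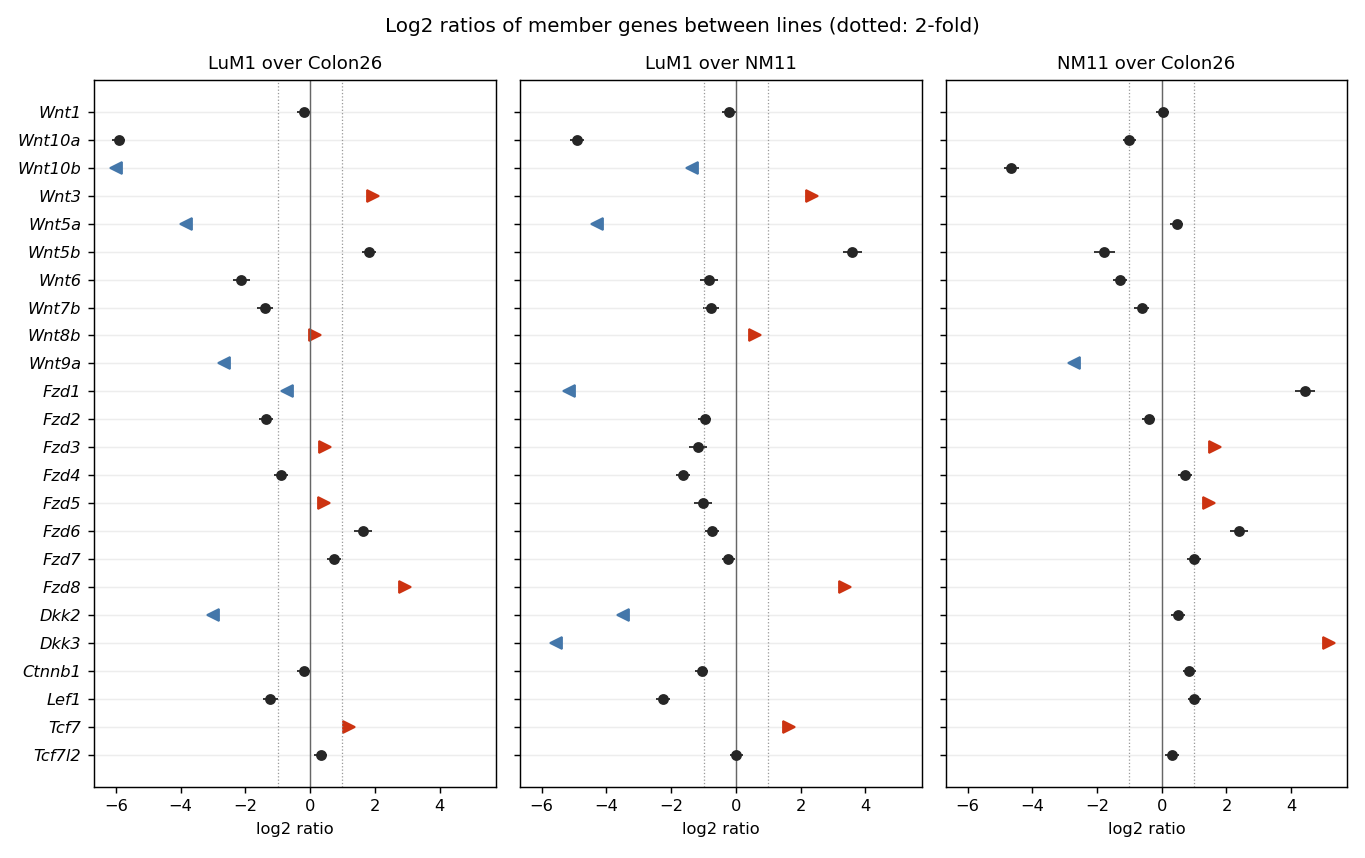
Log2 ratios of the 24 member genes between the lines, with circles for genes well above background on both arrays (bars are the scanner error) and triangles for bounds, pointing the way in which the true ratio may lie farther out. Dotted lines mark 2-fold. *Wnt10a*, *Wnt10b*, *Wnt5a*, *Dkk2* and *Lef1* lie left of it in both panels of LuM1 cells, while *Wnt3*, *Wnt5b*, *Fzd8* and *Tcf7* lie right of it.

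Of the Dkk and Sfrp genes, only *Dkk2* and *Dkk3* were well above background on any array. Dickkopf proteins of the Dkk1, Dkk2 and Dkk4 kind bind Lrp5 and Lrp6, whereas Dkk3 is a divergent member whose action on the pathway is less settled. *Dkk3* read 953 ± 95.4 in NM11 cells and was not well above background in Colon26 (7.21) or LuM1 cells (4.03). NM11 cells were thus at least 36.1-fold above Colon26 cells, and LuM1 cells at least 47.3-fold below NM11 cells. The second probe, at 309 ± 31.1 in NM11 cells against 5.49 and 4.23, gave at least 11.7-fold and at least 15.3-fold.

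*Dkk2* read 159 ± 17.1 in Colon26 and 227 ± 23.1 in NM11 cells and was not well above background in LuM1 cells (12.8). LuM1 cells were at least 7.92-fold below Colon26 and at least 11.3-fold below NM11 cells. No Dkk or Sfrp gene was well above background in LuM1 cells. Sfrp proteins resemble the ligand-binding part of Frizzled and can hold Wnt proteins away from it, and the 4 Sfrp probes read at most 16.0 on any array.

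Inside the cell, the genes for β-catenin and *Tcf7l2*, the main Tcf factor of the intestine, were well above background in all lines, while *Lef1* and *Tcf7* differed in opposite ways. *Lef1* read 180 ± 19.0 in Colon26, 76.6 ± 9.03 in LuM1 and 363 ± 36.6 in NM11 cells. LuM1 cells were 2.35-fold below Colon26 (log2 ratio -1.23, error 0.23, past 2-fold in 6 of 8 alternative settings) and 4.74-fold below NM11 cells (-2.24, error 0.22), and NM11 cells were 2.01-fold above Colon26 cells, just past the threshold and kept in 5 of 8 alternative settings. *Lef1* and *Dkk2*, both lowest in LuM1 cells, lie on chromosome 3 with 4 protein-coding genes between them.

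*Tcf7* was well above background in LuM1 cells alone (61.0 ± 7.75, against 6.08 in Colon26 and 9.37 in NM11), at least 2.31-fold and at least 3.12-fold higher. Its second probe was well above background on no array, and normexp correction took both ratios under 2-fold. The brightest of 4 *Tcf7l2* probes read 600 ± 60.3, 751 ± 75.2 and 747 ± 74.8, and no *Tcf7l2* probe passed 2-fold in any pair of lines.

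*Ctnnb1*, which encodes β-catenin, read 2872 ± 287 in Colon26, 2507 ± 251 in LuM1 and 5198 ± 520 in NM11 cells. LuM1 and Colon26 cells differed by -0.20 on the log2 scale, within the scanner error (0.20). LuM1 cells were 2.07-fold below NM11 cells by this probe and 2.34-fold by the dimmer one, a call that held in 3 of 8 alternative settings.

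*Axin2*, the feedback gene most often read as a sign of canonical signalling, was well above background on no array. Its brighter probe read 26.5 ± 6.35 in Colon26, 4.39 ± 4.40 in LuM1 and 9.41 ± 4.25 in NM11 cells, and its other probe 21.3 ± 6.66, 4.90 ± 4.91 and 4.63 ± 4.65. Only in Colon26 cells did the software call both probes significantly, though not well, above background. *Nkd1*, a feedback inhibitor that binds Dishevelled, read 5.91, 4.44 and 4.18 in Colon26, LuM1 and NM11 cells.

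Counts over the members describe these values and carry no test. Of 23 members well above background in LuM1 or Colon26 cells, 5 passed 2-fold upwards and 9 downwards in LuM1 cells (21.7% and 39.1%), where 12.9% and 11.7% of 14353 named genes were. Of 23 in LuM1 or NM11 cells, 4 were higher and 11 lower in LuM1 cells (17.4% and 47.8%), against 11.1% and 8.5% of 14415 genes. Of 20 in NM11 or Colon26 cells, 6 were higher and 5 lower in NM11 cells (30% and 25%), against 8.17% and 7.74% of 14109 genes. A gene that entered such a count through 1 array alone had to be higher there, and 19 of the 40 calls rest on bounds. The share of higher among called members was 35.7%, 26.7% and 54.5% in these comparisons, and it became 50% in the first with the authors' values and 41.7% and 40% in the other two with scaling to *Hprt*. Every pair of these comparisons shares an array.

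**Figure D3:**
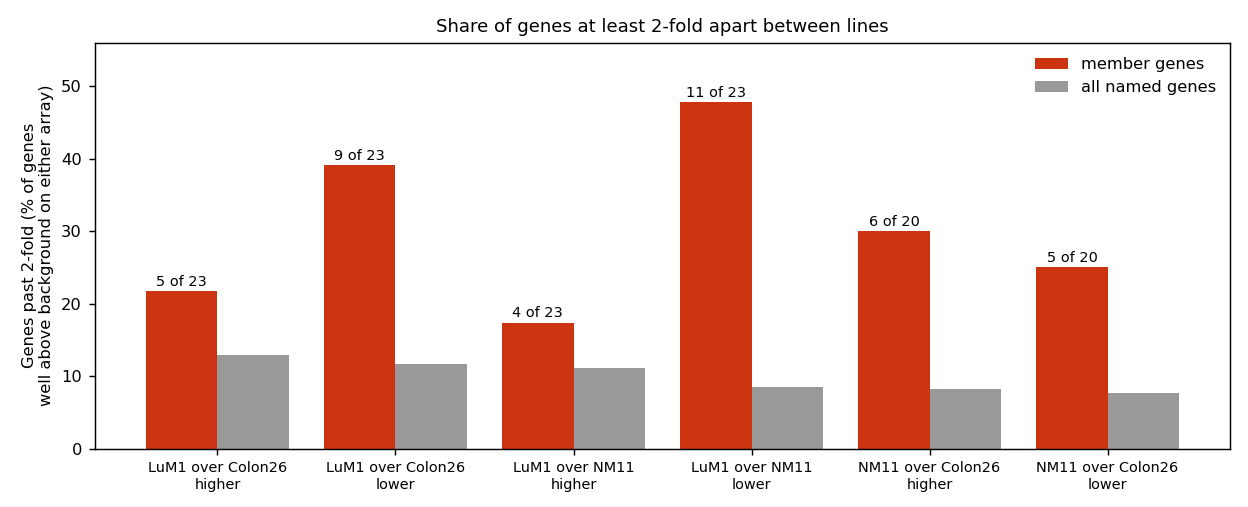
Percent of genes past 2-fold upwards or downwards in each pair of lines, among genes well above background on either array, for member genes (red, with their number) and all named genes (grey). The tallest bar is the 47.8% of members lower in LuM1 than in NM11 cells, and no test was run on these shares.

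Among the genes measured on both arrays, the median log2 ratio of LuM1 to Colon26 was -0.55 over 12 members and -0.13 over 12394 genes. For LuM1 to NM11 it was -0.90 over 14 members, 12 of them below 0, and -0.11 over 12848 genes, 7317 of them below 0. With scaling to *Hprt*, the LuM1 to NM11 ratios of *Wnt1* (0.37) and *Fzd7* (0.35) moved above 0. For NM11 to Colon26 the median was 0.39 over 16 members and -0.02 over 12469 genes.

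Set against both other lines, LuM1 cells were at least 2-fold higher for *Wnt3*, *Wnt5b*, *Fzd8* and *Tcf7* (4 of 24, 16.7%, against 7.33% of 14828 genes) and at least 2-fold lower for *Wnt5a*, *Wnt10a*, *Wnt10b*, *Dkk2* and *Lef1* (5, 20.8%, against 4.03%). NM11 cells were higher than both for *Dkk3*, *Fzd1*, *Fzd3*, *Fzd5* and *Lef1* (20.8%, against 2.58%) and lower for *Wnt5b* alone (4.17%, against 2.08%). Colon26 cells were higher than both sublines for *Wnt6*, *Wnt9a*, *Wnt10a* and *Wnt10b*, all of them ligands (16.7%, against 4.46%), and lower for *Fzd6* (4.17%, against 4.53%). Every alternative setting kept *Wnt5a*, *Wnt10a* and *Dkk2* as lower and *Wnt3*, *Wnt5b* and *Fzd8* as higher in LuM1 cells, *Dkk3* and *Fzd1* as higher in NM11 cells, and *Wnt9a* and *Wnt10b* as higher in Colon26 cells.

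A list of 57 other genes of the pathway was read with the same rule, and 42 were well above background on at least 1 array. LuM1 cells were at least 2-fold higher than both other lines for 4 of these (9.52%, against 7.33% of all genes) and lower for 3 (7.14%, against 4.03%). *Porcn*, the enzyme that attaches the lipid that Wnt proteins need for secretion, read 1131 ± 113 in Colon26, 233 ± 23.7 in LuM1 and 669 ± 67.0 in NM11 cells, which put LuM1 cells 4.86-fold below Colon26 cells. Of the Groucho-type co-repressors, which bind Tcf factors, *Tle1* and *Tle3* differed in opposite directions, while *Tle2* and *Tle5* passed 2-fold in no comparison and *Tle4* only in LuM1 over Colon26 (598 against 298). *Tle1* read 5911 ± 591, 1062 ± 106 and 4740 ± 474 and was lowest in LuM1 cells, 5.56-fold below Colon26 cells. *Tle3* read 1420 ± 142, 6300 ± 630 and 1443 ± 144 and was highest there, 4.44-fold and 4.37-fold above the other lines.

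*Ctnnbip1*, an inhibitor that blocks the binding of β-catenin to Tcf factors, was lower in LuM1 cells by 2.20-fold against Colon26 cells (1495 against 3285, with 3214 in NM11). Higher in LuM1 cells were *Kremen1*, a receptor for Dickkopf proteins (1592 against 738 and 717), the antagonist *Sost* (87.2, not well above background in the others) and *Rspo4*, of the R-spondins that strengthen Wnt signals (73.6, likewise). A second *Rspo4* probe was well above background on no array. Of the other *Kremen1* probes, one was 1.18-fold higher in LuM1 than in NM11 cells, within the scanner error, and one was not well above background in LuM1 cells (13.9) but was in NM11 cells (21.7). Colon26 cells stood above both sublines for *Apc2* (541, against 226 in LuM1 and 210 in NM11) and *Pygo1* (165, not well above background in the sublines). No gene of this list set NM11 cells apart from both others by 2-fold. *Lgr5*, *Rnf43*, *Wif1*, *Frzb*, *Ror1* and *Ror2* were well above background on no array.

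**Figure D4:**
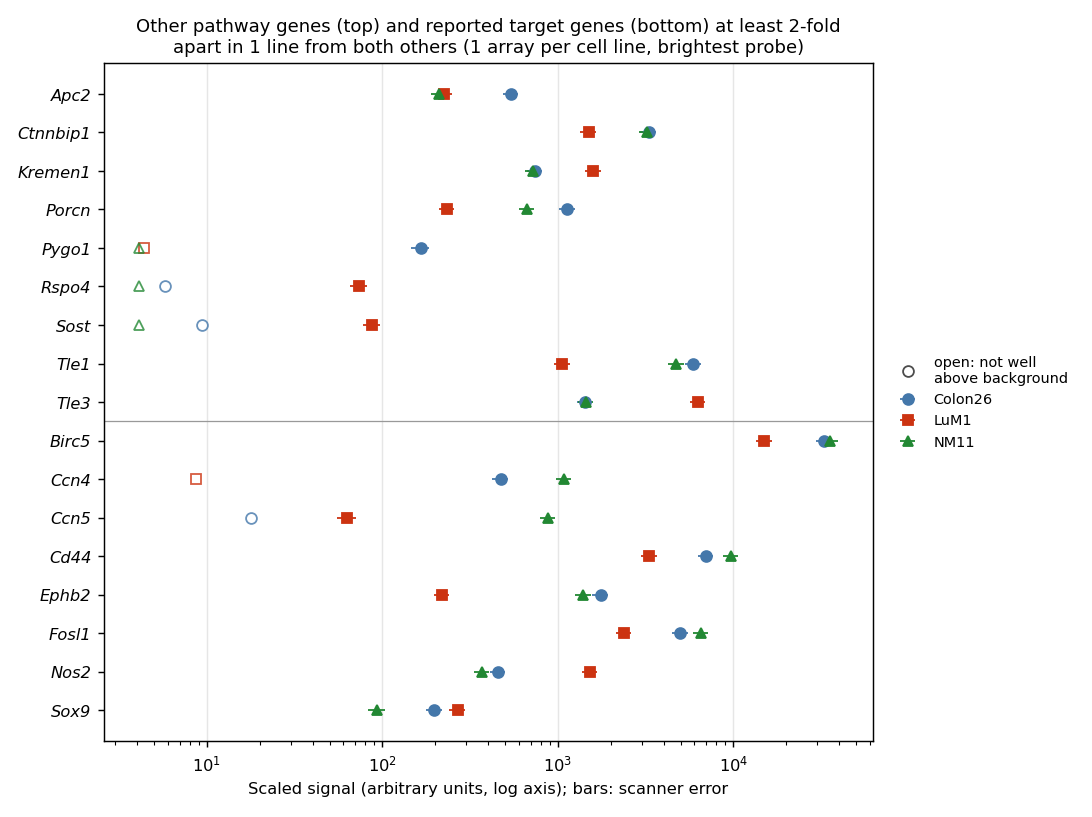
Scaled signal (log axis, arbitrary units) of the 17 genes of the 2 further lists that were at least 2-fold apart in 1 line from both others, with other pathway genes above the line and reported targets below. Filled symbols are well above background, open symbols are not, and bars are the scanner error. LuM1 cells lie left of both other lines for *Porcn*, *Tle1*, *Ctnnbip1*, *Birc5*, *Ccn4*, *Cd44*, *Ephb2* and *Fosl1*.

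Of 20 genes reported as targets of β-catenin in other systems, 17 were well above background on at least 1 array, *Sp5* and *Ascl2* not among them. LuM1 cells were lower than both other lines for 5 (29.4%, against 4.03% of all genes) and higher for 1 (5.88%, against 7.33%). NM11 cells were higher than both for 2 (11.8%, against 2.58%) and lower for 1 (5.88%, against 2.08%). Colon26 cells were higher than both for 0 (against 4.46%) and lower for 1 (5.88%, against 4.53%). *Ccn4*, a secreted matrix-associated protein, read 471 ± 47.5 in Colon26 and 1086 ± 109 in NM11 cells and was not well above background in LuM1 cells (8.70), at least 23.4-fold below Colon26 cells. Its other probe was well above background in NM11 cells alone (31.9), with LuM1 cells at least 1.58-fold below. *Ephb2*, an ephrin receptor that helps order cells along the crypt, read 1750 ± 175, 218 ± 22.4 and 1398 ± 140, so that LuM1 cells were 8.02-fold below Colon26 cells. A second *Ephb2* probe was also lowest in LuM1 cells but passed 2-fold in no comparison, at 1.71-fold below Colon26 and 1.54-fold below NM11 cells. *Fosl1*, *Cd44* and *Birc5* were 2.10-fold, also 2.10-fold and 2.18-fold lower in LuM1 cells, set against Colon26 cells. Of the other *Cd44* probes, one was 3.09-fold lower and one differed by less than the scanner error (log2 ratio -0.31, error 0.31). By their brightest probes, *Fosl1*, *Cd44* and *Birc5* lay just past the threshold (-1.07, -1.07 and -1.13), and no alternative setting is given for this list. Leaving out the scaling moved log2 ratios of LuM1 over Colon26 up by 0.11, which takes *Fosl1* and *Cd44* under 2-fold. The authors' values moved these ratios up by 0.45, which takes *Birc5* under as well, and also *Ctnnbip1* (-1.14) and *Apc2* (-1.26). Scaling to *Hprt* moved log2 ratios of LuM1 over NM11 up by 0.59. That takes *Porcn* (-1.52), *Ctnnbip1* (-1.10), *Fosl1* (-1.46), *Cd44* (-1.55) and *Birc5* (-1.25) under 2-fold in that pair. It moved NM11 over Colon26 by -0.49, which takes *Ccn4* (1.20) under.

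*Nos2*, the inducible nitric oxide synthase, was the 1 target higher in LuM1 cells (1519 ± 152, against 455 in Colon26 and 368 in NM11). *Ccn5*, a relative of *Ccn4*, read 17.9 in Colon26, where it was not well above background, 63.0 in LuM1 and 873 in NM11 cells, so the lines stood in the order NM11, LuM1, Colon26. NM11 cells were lowest for *Sox9*, a factor of crypt progenitors (93.4, against 198 and 268), although its dimmer probe, 1.27-fold lower than in Colon26 cells, did not pass 2-fold. Many other signals also control these targets, and their values give no measure of Wnt activity.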

How the data were processed

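The authors deposited, per the file headers, intensity values of each spot of 3 single-colour arrays (SurePrint G3 Mouse) from Feature Extraction 11.5.1.1, background-subtracted and detrended within each array and not scaled between arrays. The flags (other values of 0 or 1) that the authors deposited mark outliers, saturation and spots above background. The authors also deposited processed intensity values, equal to the scanner values after multiplication by a constant for each array (0.654, 0.829 and 0.706 in the order Colon26, LuM1, NM11), whose basis is not given in the sources used here. All 3 shared 1 slide and 1 scan.

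Control and outlier spots were left out, spots of a repeated probe were averaged, and the arrays were brought to a common 75th percentile (581.1, 625.1 and 551.5 before scaling for Colon26, LuM1 and NM11). Of 56605 probes, 32994 were named through RefSeq accessions (GRCm38.p6). The array design used an older assembly, so no probe coordinates are given, and promoter coordinates are those of the RefSeq windows. A gene was represented by the brightest of its probes, on average over the arrays (log2). For a probe not well above background, the bound was taken from the lowest signal well above background on that array or from its own signal, whichever was higher (26.4, 20.1 and 19.6 for Colon26, LuM1 and NM11). Pairs with both probes below background, or with a bound under 1, have no ratio. The scanner error combines 10% of the signal with a further part that weighs most on dim probes. Where the software found no significant signal, the deposited value equals that error to within 1%.

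The genes named included all members. Of the 2 further lists, they were those at least 2-fold higher or lower in 1 line than in both others. The rest entered as counts, except a few undetected genes and *Tle2*, *Tle4* and *Tle5*, which were picked after their values were seen. Members and lists were chosen with earlier results of these data known. Precision is limited by the number of arrays, which allowed no test. The calling procedure was tested on simulated data in which only bright probes were changed, by far more than 2-fold. That test therefore does not cover changes near 2-fold or changes in dim probes. The 8 alternatives were scaling to the median over probes well above background on all arrays, no scaling, quantile normalization, scaling to *Hprt*, background correction by normexp (offset 50, run on the median brightness, since the scanner files hold no mean), the authors' values, a looser detection flag and the mean over a gene's probes. Python 3.11.15 (numpy 2.4.6, pandas 2.3.3, matplotlib 3.10.9) and R 4.3.3 with limma 3.58.1 were used. Protein sequences, RT-qPCR and tumor experiments were not analysed here.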

Additional observations from a re-analysis of the deposited data

How the results depend on the processing

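No called ratio of a member turned its direction in the alternatives run, and of 40 called ratios 24 stayed past 2-fold in all 8. For most alternatives the kept direction was fixed in advance. No scaling and scaling to the median, to *Hprt* or by the authors' constants shift all ratios of a pair alike. These shifts were at most 0.59 on the log2 scale, too small to turn a call of at least 1. The looser flag left measured ratios as they were. Of 120 counts recomputed, 99 stayed within 1.5 times their value, and the cause of the others was not tested. The 99 include counts of members well above background, which rest on the software's flag and which no change of scaling could move. Members lower in LuM1 than in NM11 cells, 11 as reported, were 7 with scaling to *Hprt*, 7 with the authors' values and 7 after normexp correction. Members lower in LuM1 than in both lines (5) were 8 with quantile normalization, 3 with the authors' values and 3 after normexp, and those higher in NM11 than in both (5) were 3 without scaling, 2 with *Hprt*, 3 with the authors' values and 2 after normexp. Normexp also gave 3 members higher in LuM1 than in Colon26, 3 higher and 2 lower in NM11 than in Colon26, 0 lower in NM11 than in both, and 2 higher and 0 lower in Colon26 than in both. *Fzd6*, the 1 member lower in Colon26 than in both, was joined by *Fzd7* to make 2 with the authors' values and by *Fzd3* to make 2 with the looser flag. The looser flag gave 29 members above background in LuM1 and 29 in NM11 cells, and 8 higher in LuM1 than in NM11 cells.

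Scaling moved the median log2 ratio of all genes by over 0.1 for no scaling (0.11 for LuM1 over Colon26, 0.18 for LuM1 over NM11), *Hprt* (0.10, 0.59, and -0.49 for NM11 over Colon26) and the authors' values (0.45 and 0.41). *Hprt* itself read 11101, 10351 and 15573 in Colon26, LuM1 and NM11 cells. Signal over background limits the dim genes: 19 members have no ratio, and bounds say only how far apart 2 lines are at least. No paired analysis was possible because each line had 1 array.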
